A study of Mus musculus with 8 samples.

Results

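The genes described here are 35 antiviral genes that cells switch on in response to type I interferon. They were taken by symbol from a list of such genes, and all 35 were found among the 24339 genes of the deposited expression table. The list was chosen with earlier results of these data known. The list holds the Ifit family, the 2′-5′ oligoadenylate synthetases, the Mx GTPases, Isg15 and its partners, cytosolic sensors of viral nucleic acid, and further effectors and regulators. Expression was measured by RNA sequencing, in FPKM, fragments per kilobase of transcript scaled to library size, in peritoneal macrophages of C57BL/6 mice. The donors were either wild type or α7nAChR-/-, that is, knockout for Chrna7, whose product is the α7 subunit of nicotinic acetylcholine receptors. Plated cells were left for 15 min in 10 µM nicotine, an agonist of that receptor, or in its vehicle. They were then stimulated over 4 h with bacterial lipopolysaccharide (LPS, 100 ng/ml) or its vehicle.

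Type I interferons, such as interferon beta, bind a receptor made of Ifnar1 and Ifnar2, whose kinases Jak1 and Tyk2 act on transcription factors such as Stat2. With Irf9, Stat2 is part of a complex that binds the interferon-stimulated response element in the promoters of antiviral genes. In macrophages LPS binds Toll-like receptor 4, whose adaptor TRIF, encoded by Ticam1, leads through Tbk1 and Irf3 to the production of interferon beta, so bacterial LPS is known to switch on the antiviral program through secreted interferon.

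The 2 genotypes and 4 treatments gave 8 conditions with 1 library each. No condition had a replicate, and whether separate animals were used is not stated in the labels. Genotype and preparation of cells therefore cannot be told apart. Treatments were compared as 2 libraries against 2, matched by genotype, in a limma fit on log2(FPKM + 1) over the 10447 genes whose mean reached 1 FPKM, and every p was adjusted over all of them. The spread in this fit is the departure from a constant difference between genotypes, so the p-values measure only the scatter between these libraries. All 35 members passed the minimum. Effects are differences on the log2(FPKM + 1) scale with their standard errors, and folds are on the same scale, which understates the change of low genes. Pairs of FPKM levels give the wild type library and then the knockout library.

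Summed FPKM ranged from 413050 to 854020 per library, and depth in read counts is not given in the sources used here. Chrna7 was listed at 0 FPKM in all 8 libraries, wild type included, so the table does not check the knockout label. The table puts Gapdh, a glycolytic gene of all cells, between 1.34 and 8.90 FPKM, and other low or 0 entries may likewise be failed estimates. Actb was at 1272 and 1343 FPKM with vehicle and 491 and 488 with nicotine. It stood at 2879 and 4726 with LPS and at 425 and 537 with both agents. Eef1a1 was higher with nicotine, at 5380 and 4116 against 3837 and 3006 with vehicle. With both agents it was at 6998.5 and 5395, against 3935 and 3538 with LPS alone. Large falls with nicotine in LPS-treated cells were thus not confined to the members. The cells carried macrophage transcripts: the 10 macrophage markers summed to between 20454 and 34847 FPKM, of which Lyz2 made up most, and Adgre1 stood between 289 and 421. Of the 8 markers of plasmacytoid dendritic cells, the type known for high interferon output, Siglech reached at most 0.106 FPKM and Klk1 at most 0.0880, while 3 passed the minimum: Ly6d (22.3 to 205 FPKM), Spib (17.5 to 71.0) and Tcf4 (4.42 to 38.6). The sum of the 8 was 99.0 and 106 FPKM with vehicle, 65.1 and 59.6 with nicotine, 271 and 298 with LPS and 97.9 and 148 with both agents. All 3 rose with LPS in the limma fit, and Ly6d and Tcf4 fell with nicotine and LPS, as most members did. Their part in the results was not tested. Of the 8 B cell markers in the table the sum lay between 198 and 418 FPKM, and of 9 T and NK cell markers between 8.51 and 16.6. The 6 eosinophil markers summed to at most 6.84, with Epx listed at 0 throughout, and 8 mesothelial and fibroblast markers to at most 8.54. In such a culture fewer cells of a type and less RNA per cell cannot be told apart.

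The promoters of the set are shown first, since the response element is the site bound by the complex of Stat2 and Irf9. RefSeq promoter windows on GRCm38.p6, which run from 250 bases before to 50 bases after the transcription start, were matched for 26 of the 35 members. The core of the response element, written as a pair of GAAA blocks with any 2 bases between them and read on either strand, was present in 14 of the 26 (53.8%), against 3.99% of 27025 genes over the genome with windows of the same length. A single match was present in 7 members, 2 matches in 6 and 3 overlapping matches in Isg15. The 250 upstream bases are printed 5′ to 3′ along the gene's strand, with the response element cores in capitals, for 5 members. Ifit1 and Rsad2 are the members with the largest LPS effects. All 5 printed windows hold a core, but 12 of the 26 do not, among them those of Oasl1 and Cmpk2, which come next in LPS effect. Isg15 is the member called higher with nicotine alone in the main fit, and Ifit3 and Ifit3b have near-identical open reading frames.
Ifit1 promoter: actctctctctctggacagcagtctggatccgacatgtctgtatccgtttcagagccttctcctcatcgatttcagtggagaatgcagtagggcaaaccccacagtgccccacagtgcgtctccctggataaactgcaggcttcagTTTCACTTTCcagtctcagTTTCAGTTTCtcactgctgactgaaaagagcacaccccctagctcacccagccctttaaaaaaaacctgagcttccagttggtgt
Rsad2 promoter: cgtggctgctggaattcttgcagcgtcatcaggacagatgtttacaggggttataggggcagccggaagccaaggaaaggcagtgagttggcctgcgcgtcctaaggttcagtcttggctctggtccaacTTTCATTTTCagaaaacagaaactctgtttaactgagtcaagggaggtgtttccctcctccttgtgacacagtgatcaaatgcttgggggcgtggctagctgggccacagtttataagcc
Isg15 promoter: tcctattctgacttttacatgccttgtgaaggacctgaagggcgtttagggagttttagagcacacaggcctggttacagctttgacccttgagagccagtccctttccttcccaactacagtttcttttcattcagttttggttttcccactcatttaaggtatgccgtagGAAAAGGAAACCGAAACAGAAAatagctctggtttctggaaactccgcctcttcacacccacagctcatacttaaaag
Ifit3 promoter: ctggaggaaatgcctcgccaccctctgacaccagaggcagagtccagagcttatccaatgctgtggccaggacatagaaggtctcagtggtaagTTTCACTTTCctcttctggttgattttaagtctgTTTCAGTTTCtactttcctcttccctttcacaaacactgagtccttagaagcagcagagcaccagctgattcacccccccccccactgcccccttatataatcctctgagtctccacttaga
Ifit3b promoter: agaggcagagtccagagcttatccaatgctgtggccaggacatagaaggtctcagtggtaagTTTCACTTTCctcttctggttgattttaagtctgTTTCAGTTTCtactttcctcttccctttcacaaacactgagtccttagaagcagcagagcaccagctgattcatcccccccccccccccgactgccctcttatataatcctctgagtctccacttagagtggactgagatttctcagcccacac
They lie at chr19:34640639-34640888 (plus strand), chr12:26456453-26456702 (minus strand), chr4:156200819-156201068 (minus strand), chr19:34583279-34583528 (plus strand) and chr19:34607707-34607956 (plus strand). In Ifit1 the cores began 104 and 85 bases before the start, in Rsad2 the core began 120 bases before it, and in Isg15 the 3 cores began 78, 72 and 66 bases before it. The Ifit3 window carried the cores TTTCACTTTC and TTTCAGTTTC 156 and 122 bases before the start, and Ifit3b carried the same letters 188 and 154 bases before its own. The gamma-activated site TTCNNNGAA was present in 6 of 26 member windows (23.1%, against 9.55% of all such genes). An NF-kB site, written as GGGA and CC with any 4 bases between them, was present in 7 of 26 (26.9%, against 22.9%). These are matches of letters in a fixed window, and binding was not measured.

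LPS raised the whole set. Without nicotine all 35 members were higher with LPS in the limma fit at an adjusted p under 0.05, where 32.7% of the genes tested were higher, and in all 35 both LPS libraries lay above both vehicle libraries, as 41.6% of genes did. The median effect of the members was 4.70, a 26.1-fold rise, against 0.08 for all genes tested. The effects ran from 3.04 ± 0.30 for Dtx3l to 9.66 ± 0.33 for Rsad2, a gene whose product viperin makes a chain-terminating nucleotide. Every member kept this call under all 18 alternative settings and left-out libraries. With nicotine present, LPS still raised 34 of 35 members (8.29% of genes were higher), by a median of 3.11 or 8.62-fold. The exception was Bst2, the tetherin that holds budding virus at the cell surface, at 0.90 ± 0.36 (limma adjusted p = 0.139).

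**Figure D1:**
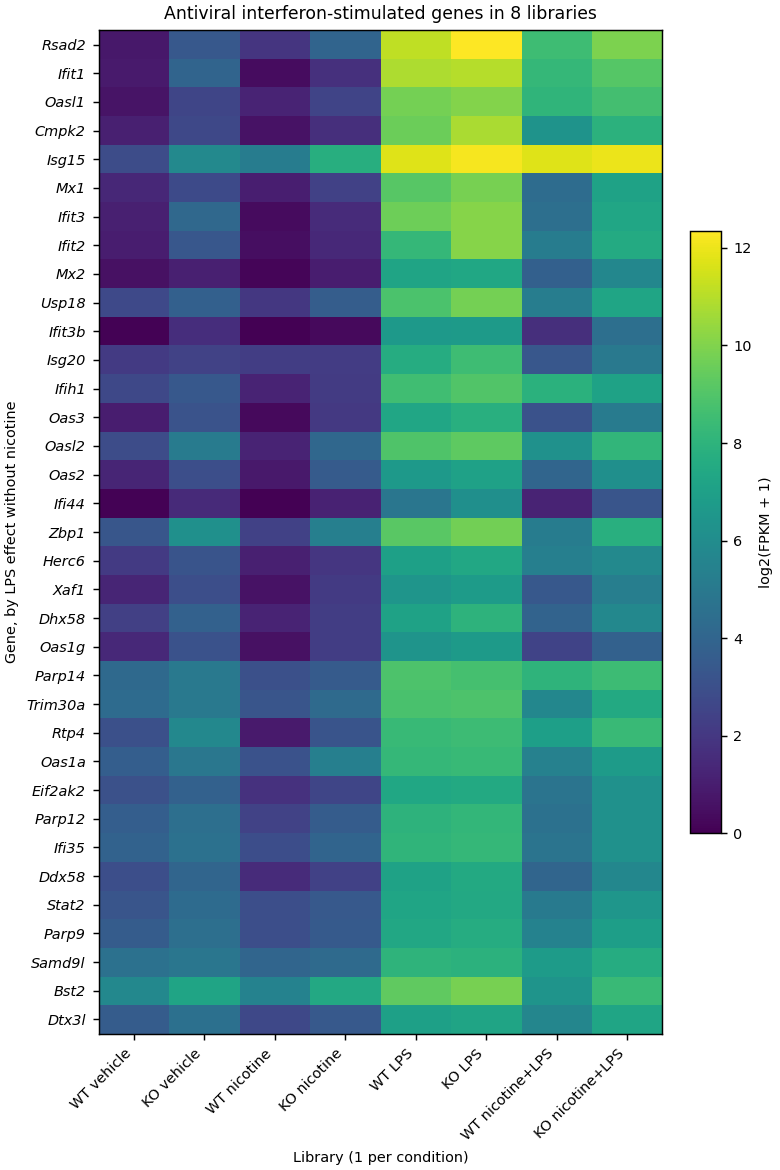
Levels of the 35 members in the 8 libraries, as log2(FPKM + 1) by color, with genes ordered from the largest LPS effect (top) to the smallest (bottom) and 1 column per library. The 2 LPS columns are the brightest for nearly every gene, the nicotine with LPS columns are darker, most so in wild type, and Isg15 stays bright in all 4 LPS columns.

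In LPS-treated cells nicotine lowered most of the set. With LPS, nicotine lowered 31 of 35 members (28.6% of genes were lower), by a median effect of -2.28, a 4.86-fold fall, against -0.03 for all genes tested. In 32 members both libraries with nicotine and LPS lay below both with LPS alone, as 37.7% of genes did. Without LPS, nicotine lowered 12 members (26% of genes were lower) and raised 1, Isg15 (30.1% were higher), with a median effect of -0.83. In 11 members both nicotine libraries lay below both vehicle libraries (35.6% of genes), so these counts without LPS were near the background. The direction was more uniform: the effect was below 0 in 31 of 35 members, against 5091 of 10447 genes, whose median was 0.03. Most members given both agents still stood above their vehicle level: in 30 of 35 both such libraries exceeded both vehicle libraries (41.1% of genes), and the exceptions were Oas1g, Oas3, Zbp1, Ifi44 and Bst2.

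By library, the median member stood at 5.50 FPKM in the wild type and 13.4 in the knockout with vehicle, 1.37 and 5.05 with nicotine alone, 269 and 320 with LPS alone, and 35.2 and 136 with the agents together. The knockout median was the higher of the pair under each treatment. With vehicle, 8 members were under 1 FPKM in the wild type library and 0 in the knockout library. With nicotine alone, 12 and 2 were under 1 FPKM, and Ifit3b and Ifi44 were listed at 0 in the wild type.

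**Figure D2:**
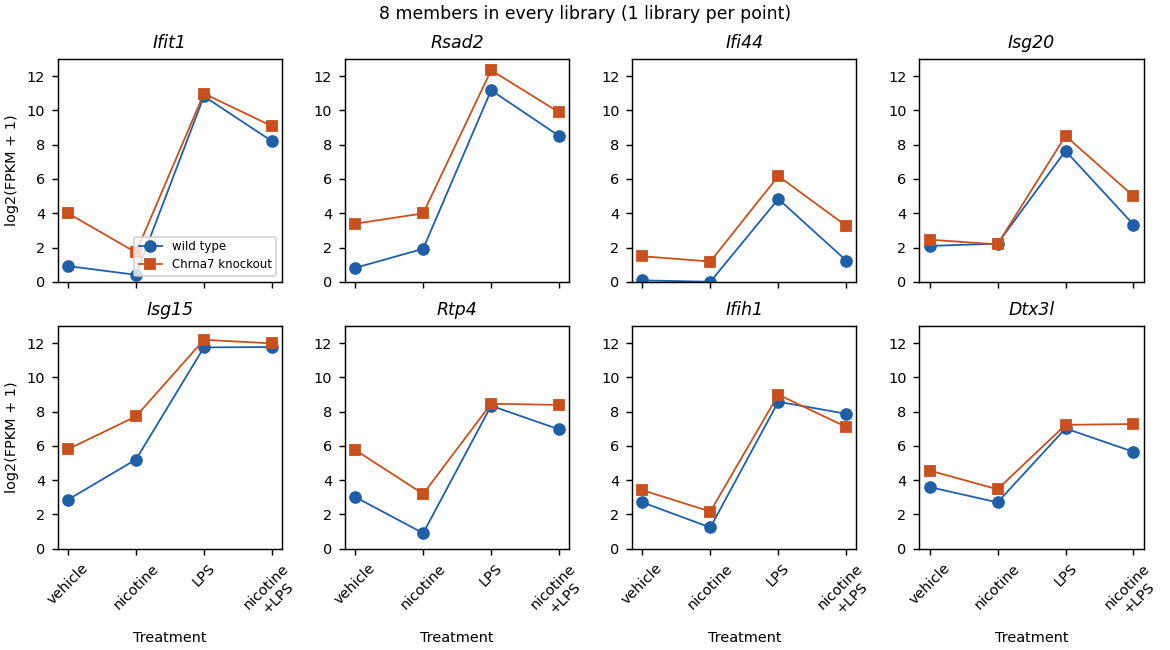
Levels of 8 members by treatment on the log2(FPKM + 1) scale, with blue circles for wild type and orange squares for knockout, 1 library per point. Ifit1, Rsad2, Ifi44 and Isg20 drop between LPS and nicotine with LPS in both genotypes, Isg15 does not, and Dtx3l and Rtp4 drop in the wild type and stay near level in the knockout.

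The Ifit proteins bind viral RNA that lacks host-type cap methylation, or block translation. Their 4 genes lie close together on the same strand of chromosome 19, with Ifit1 at chr19:34640871-34650009, plus strand on GRCm38. Ifit1 was at 0.887 and 15.0 FPKM with vehicle and 0.324 and 2.27 with nicotine, then 1820.3 and 2028.5 with LPS and 294 and 543 with both agents. LPS raised it by 8.45 ± 0.61 (limma adjusted p = 0.000146), and nicotine lowered its LPS level by 2.26 ± 0.61 (limma adjusted p = 0.0191). The nicotine call on Ifit1 rested on single libraries: without the wild type LPS library the adjusted p was 0.111.
Ifit2 was at 0.966 and 9.22 FPKM with vehicle and 0.379 and 1.72 with nicotine, then 302 and 1107 with LPS and 35.1 and 185 with both agents. It was low in all 4 libraries without LPS, and in each treatment the knockout library was the higher of the pair. Nicotine lowered it without LPS (-1.21 ± 0.34 (limma adjusted p = 0.0217)) and with LPS (-2.82 ± 0.34 (limma adjusted p = 0.000901)). On the log2(FPKM + 1) scale the fall was larger with LPS (interaction -1.61 ± 0.48 (limma adjusted p = 0.0457)), but that call was lost in 12 of 17 alternatives.
Ifit3 was at 1.12 and 17.1 FPKM with vehicle and 0.265 and 1.82 with nicotine, then 797 and 1096.5 with LPS and 22.1 and 157 with both agents, so the wild type library with both agents held 2.77% of its LPS level and the knockout library 14.3%. Its nicotine effect with LPS was the largest fall of the set, at -3.95 ± 0.62 (limma adjusted p = 0.00242). Ifit3b was at 0.0427 and 2.09 FPKM with vehicle and 0 and 0.226 with nicotine, then 97.4 and 105 with LPS and 2.21 and 21.9 with both agents. It followed Ifit3 at a lower level, and its nicotine effect with LPS was -3.58 ± 0.62 (limma adjusted p = 0.00355). The longest open reading frames of Ifit3 and Ifit3b are identical at 1201 of 1212 aligned bases (99.1%), so fragments may have been split between them, and their separate levels are uncertain.

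Rsad2 and Cmpk2, a nucleotide kinase that acts upstream of viperin, are neighbours on chromosome 12. Rsad2 (viperin, chr12:26442746-26456452, minus strand) was at 0.753 and 9.50 FPKM with vehicle and 2.80 and 14.9 with nicotine, then 2321 and 5217 with LPS and 363.5 and 948 with both agents. It was the most induced member, 811-fold, and with vehicle or nicotine it never exceeded 14.9 FPKM. Its nicotine effect had opposite signs without LPS (0.86 ± 0.33 (limma adjusted p = 0.0655)) and with LPS (-2.57 ± 0.33 (limma adjusted p = 0.00121)), and only the second passed the test. The interaction was -3.42 ± 0.47 (limma adjusted p = 0.00624). Cmpk2 was at 1.14 and 5.38 FPKM with vehicle and 0.529 and 2.20 with nicotine, then 750.4 and 1765.5 with LPS and 81.0 and 242 with both agents. Nicotine lowered it in both settings, by 0.74 ± 0.17 without LPS (limma adjusted p = 0.0112) and by 3.03 ± 0.17 with LPS (limma adjusted p = 0.000148). In both genes the knockout library was the higher in every treatment.

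Isg15 is a ubiquitin-like protein that is joined to viral and host proteins, Herc6 is the ligase that attaches it in mice, and Usp18 removes it and also damps interferon receptor signalling. Isg15 (chr4:156199424-156200818, minus strand) was at 6.25 and 54.8 FPKM with vehicle and 35.8 and 209.7 with nicotine, then 3439 and 4675 with LPS and 3488 and 4043 with both agents. It had the highest level of any member in both libraries that had both agents, and those libraries reached 101% and 86.5% of the LPS level. LPS raised it by 7.64 ± 0.68 (limma adjusted p = 0.000264). Nicotine without LPS raised it by 2.13 ± 0.68 (limma adjusted p = 0.0353), higher in both genotypes. That nicotine call was lost with no minimum level, under quantile normalization and without the genotype block. In the additive model, whose nicotine effect is averaged over libraries with and without LPS, nicotine did not pass for Isg15 either. With LPS the nicotine effect was -0.09 ± 0.68 (limma adjusted p = 0.915), with an interval of -1.73 to 1.54. The vehicle and nicotine libraries overlapped, since the wild type nicotine level lay below the knockout vehicle level, and the rise lost its call without the wild type vehicle (1.19, adjusted p = 0.227), the wild type nicotine (2.79, adjusted p = 0.0536) or the knockout nicotine library (1.47, adjusted p = 0.226).
Usp18 was at 5.63 and 12.8 FPKM with vehicle and 2.98 and 11.4 with nicotine, then 460.1 and 869.6 with LPS and 36.9 and 154 with both agents. LPS raised it 66.3-fold, and nicotine with LPS lowered it by 3.05 ± 0.28 (limma adjusted p = 0.000389). Herc6 was at 3.21 and 8.11 FPKM with vehicle and 1.13 and 2.88 with nicotine, then 131 and 167 with LPS and 39.1 and 55.1 with both agents. It fell with nicotine without LPS (-1.11 ± 0.21 (limma adjusted p = 0.00495)) and with LPS (-1.65 ± 0.21 (limma adjusted p = 0.00110)), and its interaction did not pass (-0.54 ± 0.29 (limma adjusted p = 0.201)). Under nicotine and LPS, then, Usp18 and Herc6 fell, and the effect on Isg15 did not pass.

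The oligoadenylate synthetases Oas1a, Oas1g, Oas2 and Oas3 sense double-stranded RNA and make the messenger that activates RNase L, and Oasl1 and Oasl2 are related proteins with ubiquitin-like domains. All 6 genes lie on chromosome 5. Oas1a was at 12.1 and 29.1 FPKM with vehicle and 7.52 and 39.0 with nicotine, then 303 and 319.7 with LPS and 42.1 and 109 with both agents. Oas1g was at 1.71 and 7.54 FPKM with vehicle and 0.476 and 3.76 with nicotine, then 84.3 and 103 with LPS and 4.68 and 13.0 with both agents. Both were raised by LPS (effects of 3.98 ± 0.44 and 4.29 ± 0.34) and lowered by nicotine with LPS, Oas1a by 2.18 ± 0.44 (limma adjusted p = 0.00634) and Oas1g by 3.40 ± 0.34 (limma adjusted p = 0.000504). Their longest open reading frames agree at 1068 of 1104 bases (96.7%), so reads may have been split between this pair too. Oas2 was at 1.45 and 6.71 FPKM with vehicle and 0.818 and 10.7 with nicotine, then 102 and 132 with LPS and 15.3 and 70.8 with both agents. Oas3 was at 0.989 and 7.89 FPKM with vehicle and 0.227 and 3.11 with nicotine, then 159 and 223 with LPS and 7.59 and 33.7 with both agents. In Oas3 the wild type library with both agents lay under the knockout vehicle library. Nicotine with LPS lowered Oas3 by 3.46 ± 0.39 (limma adjusted p = 0.000727) and Oas2 by 1.78 ± 0.49 (limma adjusted p = 0.0210).
Oasl1, known as a translational repressor of Irf7, was at 0.563 and 5.01 FPKM with vehicle and 1.32 and 4.86 with nicotine, then 874 and 1052 with LPS and 273 and 409.5 with both agents. It was induced 313-fold by LPS and kept 31.2% and 38.9% of its LPS level with nicotine, with an effect of -1.52 ± 0.38 (limma adjusted p = 0.0147). Oasl2 was at 6.31 and 33.6 FPKM with vehicle and 1.37 and 16.6 with nicotine, then 498 and 629 with LPS and 75.1 and 281 with both agents. It kept 15.1% in the wild type and 44.6% in the knockout, and its nicotine effect with LPS was -1.94 ± 0.53 (limma adjusted p = 0.0208).

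The Mx GTPases trap incoming viral ribonucleoproteins. In most laboratory strains, C57BL/6 among them, Mx1 and Mx2 carry defects that leave no functional protein, so here they serve as transcriptional readouts. Mx1 was at 1.62 and 5.80 FPKM with vehicle and 1.06 and 4.29 with nicotine, then 571 and 899 with LPS and 19.5 and 139 with both agents. Mx2 was at 0.487 and 1.14 FPKM with vehicle and 0.143 and 0.997 with nicotine, then 146 and 165 with LPS and 12.8 and 51.4 with both agents. The wild type library with both agents was the lowest of the 4 LPS libraries in each gene, and the vehicle and nicotine libraries reached at most 5.80 FPKM. Nicotine with LPS lowered Mx1 by 3.74 ± 0.44 (limma adjusted p = 0.000864) and Mx2 by 2.54 ± 0.38 (limma adjusted p = 0.00214). Without LPS their nicotine effects were -0.35 ± 0.44 and -0.24 ± 0.38, neither past the threshold, and both interactions passed (-3.39 ± 0.63 and -2.30 ± 0.54, limma adjusted p = 0.0119 and 0.0244).

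Isg20 is an exonuclease that degrades RNA, Ifi44 is an interferon-induced cytoplasmic protein, and Bst2 is tetherin. Isg20 was at 3.26 and 4.49 FPKM with vehicle and 3.67 and 3.55 with nicotine, then 199 and 365 with LPS and 9.12 and 31.0 with both agents. Its vehicle and nicotine levels lay between 3.26 and 4.49 FPKM in both genotypes, so it moved with LPS and not measurably with nicotine alone (-0.07 ± 0.37 (limma adjusted p = 0.885)), while nicotine with LPS lowered it by 3.91 ± 0.37 (limma adjusted p = 0.000445). The interaction of Isg20, -3.84 ± 0.53 (limma adjusted p = 0.00624), was the largest of the set and the only one that passed under all 17 alternatives. Ifi44 was at 0.0570 and 1.81 FPKM with vehicle and 0 and 1.27 with nicotine, then 27.6 and 71.0 with LPS and 1.35 and 8.57 with both agents. It was the lowest member in mean level, and its wild type library with both agents fell under the knockout vehicle library. Nicotine with LPS lowered it by 3.26 ± 0.22 (limma adjusted p = 0.000201).
Bst2 was at 52.7 and 149.6 FPKM with vehicle and 43.7 and 175 with nicotine, then 634 and 888 with LPS and 82.1 and 328 with both agents. It had the highest vehicle level of any member in both genotypes, and the wild type library with both agents lay under the knockout vehicle library. Its nicotine effect was -0.02 ± 0.36 (limma adjusted p = 0.967) without LPS, and nicotine lowered it by 2.18 ± 0.36 (limma adjusted p = 0.00285) with LPS.

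The cytosolic sensors fell with nicotine in both settings, apart from Zbp1. Ddx58 (RIG-I) and Ifih1 (MDA5) detect viral RNA and signal through Mavs, Dhx58 (LGP2) modulates them, Eif2ak2 (PKR) halts translation on double-stranded RNA, and Zbp1 senses Z-form nucleic acid. Ddx58 was at 6.87 and 15.2 FPKM with vehicle and 1.91 and 4.21 with nicotine, then 139 and 182 with LPS and 15.5 and 51.5 with both agents. Nicotine lowered it by 1.54 ± 0.28 (limma adjusted p = 0.00459) without LPS and by 2.44 ± 0.28 (limma adjusted p = 0.000805) with LPS. Dhx58 was at 4.02 and 13.3 FPKM with vehicle and 1.32 and 3.77 with nicotine, then 139.8 and 253 with LPS and 14.4 and 52.7 with both agents. Its falls were 1.35 ± 0.24 and 2.72 ± 0.24 (limma adjusted p = 0.00419 and 0.000374). Both nicotine libraries of Ddx58 and of Dhx58 lay below both vehicle libraries.
Eif2ak2 was at 7.49 and 13.4 FPKM with vehicle and 2.35 and 5.05 with nicotine, then 164 and 180.1 with LPS and 26.1 and 74.1 with both agents. It fell by 1.30 ± 0.29 without LPS (limma adjusted p = 0.00964) and by 1.94 ± 0.29 with LPS (limma adjusted p = 0.00203).
Ifih1 was at 5.50 and 9.65 FPKM with vehicle and 1.35 and 3.48 with nicotine, then 379.7 and 506 with LPS and 233 and 136 with both agents. It was the sole member with a knockout level below wild type with both agents, and it kept 61.4% of its LPS level in the wild type and 26.9% in the knockout. Its falls with nicotine were near equal, 1.36 ± 0.38 without LPS (limma adjusted p = 0.0226) and 1.29 ± 0.38 with LPS (limma adjusted p = 0.0271), with an interaction of 0.06 ± 0.54. Zbp1 was at 8.88 and 72.5 FPKM with vehicle and 4.16 and 39.5 with nicotine, then 592 and 832 with LPS and 35.2 and 220.5 with both agents. The knockout library was the higher in each treatment, and nicotine with LPS lowered Zbp1 by 2.97 ± 0.58 (limma adjusted p = 0.00543). Its nicotine effect without LPS was -0.90 ± 0.58 (limma adjusted p = 0.223).

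Parp9, Parp12 and Parp14 are ADP-ribosyltransferases, Dtx3l is the ubiquitin ligase that partners Parp9, and Rtp4 is a chaperone-like protein with antiviral activity. All 5 passed as lower with nicotine alone, where 26% of all genes did, and with single libraries left out only Parp14 of the 5 held that call throughout. Rtp4 was at 7.07 and 53.2 FPKM with vehicle and 0.869 and 8.15 with nicotine, then 323 and 350.4 with LPS and 124 and 334 with both agents. Nicotine alone lowered it by 2.34 ± 0.57 (limma adjusted p = 0.0130), the largest fall without LPS, and with LPS its effect was -0.72 ± 0.57 (limma adjusted p = 0.314). The knockout kept 95.4% and the wild type 38.3% of the LPS level.
Dtx3l was at 11.1 and 22.6 FPKM with vehicle and 5.49 and 10.0 with nicotine, then 128 and 149 with LPS and 49.3 and 154 with both agents. Nicotine alone lowered it by 1.00 ± 0.30 (limma adjusted p = 0.0302), and with LPS its effect was -0.66 ± 0.30 (limma adjusted p = 0.109), with 38.4% kept in the wild type and 104% in the knockout. Parp9 was at 11.3 and 22.1 FPKM with vehicle and 6.92 and 10.2 with nicotine, then 171 and 201 with LPS and 43.3 and 119.5 with both agents. It fell by 0.83 ± 0.28 without LPS and by 1.35 ± 0.28 with LPS (limma adjusted p = 0.0411 and 0.00698). Parp9 and Dtx3l lie head to head on opposite strands and share 458 exon bases, 9.40% of those of Parp9, and the library kit does not mark strand.
Parp14 was at 17.5 and 30.7 FPKM with vehicle and 7.09 and 10.9 with nicotine, then 474 and 424 with LPS and 258 and 347 with both agents. It fell by 1.31 ± 0.23 with nicotine alone (limma adjusted p = 0.00359), the sole call without LPS that held in all 18 alternatives, and with LPS its effect was -0.58 ± 0.23 (limma adjusted p = 0.0660). Parp12 was at 11.8 and 22.0 FPKM with vehicle and 4.33 and 10.9 with nicotine, then 251 and 284 with LPS and 23.3 and 74.0 with both agents. It fell in both settings, by 1.11 ± 0.32 and 2.65 ± 0.32 (limma adjusted p = 0.0237 and 0.000894). On the log2(FPKM + 1) scale it fell more with LPS (interaction -1.54 ± 0.45 (limma adjusted p = 0.0430)), but that call was lost in 10 of 17 alternatives.

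The other 5 members, Stat2, Ifi35, Samd9l, Trim30a and Xaf1, had LPS effects of 3.26 ± 0.22 (Samd9l) to 4.50 ± 0.36 (Xaf1). Stat2, the transcription factor of the interferon complex, was at 8.71 and 19.0 FPKM with vehicle and 6.69 and 9.91 with nicotine, then 150.4 and 174 with LPS and 31.8 and 88.0 with both agents. Nicotine with LPS lowered all 5: Stat2 by 1.59 ± 0.29, Ifi35 by 2.64 ± 0.29, Samd9l by 0.77 ± 0.22, Trim30a by 2.24 ± 0.36 and Xaf1 by 2.28 ± 0.36 (limma adjusted p from 0.000703 to 0.0236). Without LPS none of the 5 passed. Samd9l, a restriction factor for poxviruses, was at 23.3 and 27.6 FPKM with vehicle and 15.1 and 18.1 with nicotine, then 257 and 244 with LPS and 109 and 197 with both agents, and of the set it changed least with genotype.

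Whether nicotine acted more strongly on LPS-treated cells was tested by the interaction of the agents, on the log2(FPKM + 1) scale. Without LPS, 8 members with vehicle and 12 with nicotine were under 1 FPKM in the wild type, where this scale compresses a fall. For such members the test cannot tell a stronger nicotine effect from the scale. The nicotine effect was lower with LPS than without it in 17 of 35 members (17.3% of genes) and higher in 0 (12.8%). The 17 were Isg20, Rsad2, Mx1, Ifi44, Ifit3b, Usp18, Oas3, Oas1g, Mx2, Cmpk2, Bst2, Oas1a, Ifi35, Oasl1, Ifit2, Parp12 and Dhx58, from -3.84 ± 0.53 for Isg20 to -1.37 ± 0.34 for Dhx58. With 0.1 in place of 1 added to FPKM, the calls on Ifit2, Ifit3b, Mx2, Oas1a, Oas1g, Oas3, Oasl1, Parp12 and Dhx58 were lost. Calls on Isg20, Rsad2, Cmpk2, Ifi44 and Usp18 held with each library left out in turn. The count of 17 became 6 without the wild type vehicle library, 7 without the wild type nicotine, the knockout nicotine or the wild type nicotine with LPS library, 10 without the knockout vehicle and 11 without the wild type LPS library. It was 12 without the knockout library given both agents and 25 without the knockout LPS library. The signs of the other 18 differed: Rtp4 (1.62 ± 0.80), Parp14 (0.72 ± 0.32), Dtx3l (0.34 ± 0.43) and Ifih1 (0.06 ± 0.54) were above 0 and did not pass. Without the wild type LPS library, Rtp4 and Parp14 passed as higher. Under quantile scaling of the libraries 9 members were lower and 1 higher.

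**Figure D3:**
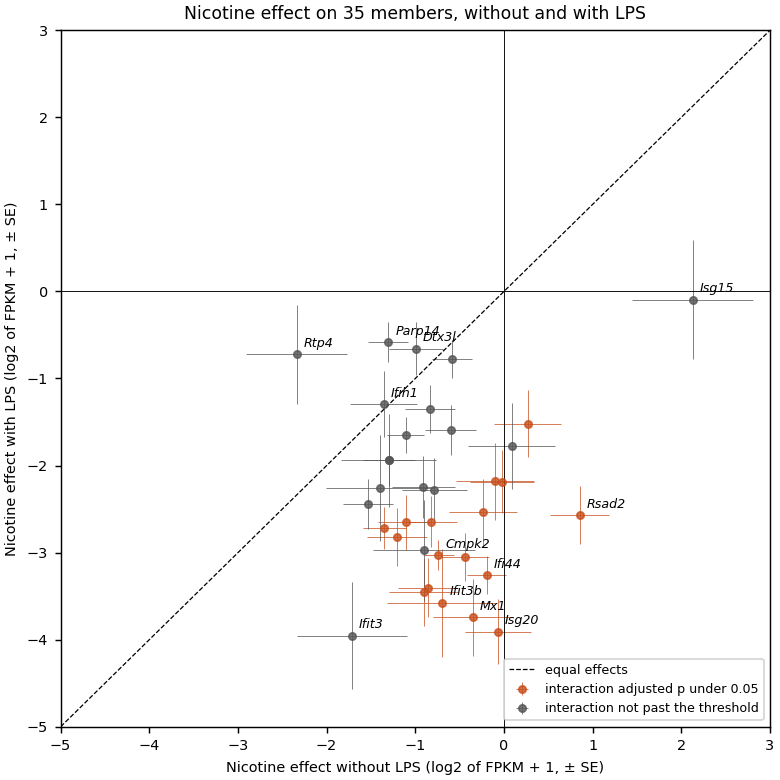
Nicotine effect on each of the 35 members without LPS (horizontal axis) and with LPS (vertical axis), as differences on the log2(FPKM + 1) scale with SE bars, orange where the interaction passed. Most points lie below the dashed line of equal effects, with Isg20, Mx1, Ifi44 and Rsad2 near 0 or above without LPS and between -2.57 and -3.91 with LPS, while Rtp4, Parp14 and Dtx3l lie above the line.

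The counts for nicotine depended on the libraries. The 12 falls without LPS became 5 without the knockout vehicle library, 6 without the wild type nicotine, 7 without the knockout nicotine and 21 without either LPS library, and 4 of them, Ddx58, Dhx58, Herc6 and Parp14, held with each library left out. The 31 falls with LPS stayed between 25 and 33, and 23 of them held with each library left out.
Mast cell markers also moved: the sum of the 10 was 221 and 166 FPKM with vehicle, 426 and 326 with nicotine alone, 475 and 406 with LPS alone, and 822 and 639.7 with the agents together. Most of the LPS rise was Hdc, the histidine decarboxylase, at 2.64 and 1.66 FPKM with vehicle, 171 and 184 with LPS and 55.5 and 57.8 with both agents. Without Hdc the sums were 218 and 165 with vehicle, 401 and 307 with nicotine, 304 and 222 with LPS and 767 and 582 with both agents. Resident peritoneal macrophage markers summed to between 367 and 524 FPKM in 6 libraries and to 852 and 825 with LPS alone. Most of that rise was in Prg4 and Timd4. Prg4 was at 142 and 118 FPKM with vehicle and 467 and 321 with LPS alone. Of the 8 markers of this list tested, LPS without nicotine raised 2 and lowered 1. Nicotine with LPS lowered 4 and raised 0 (28.6% and 26.9% of genes). Nicotine without LPS lowered 1, Gata6 (-1.80 ± 0.27), and raised 0. The part of the mast cell and resident macrophage markers in the nicotine and LPS results was not tested.

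The members were higher in the knockout. Across the 4 matched treatments the limma genotype effect passed for 16 members, all higher (4.76% of genes were higher), with a median of 1.24 (2.35-fold) against -0.01 for all genes tested. The 16 were Ifit2, Rsad2, Oasl2, Oas1g, Oas2, Oas3, Mx1, Cmpk2, Usp18, Zbp1, Ddx58, Dhx58, Xaf1, Ifi44, Bst2 and Herc6. Zbp1 had the largest effect, 2.24 ± 0.41 (limma adjusted p = 0.0272), and Herc6 the smallest of the 16, 0.70 ± 0.15 (limma adjusted p = 0.0391). Of the 16, Ifit2 (1.90 ± 0.24 (limma adjusted p = 0.00897)) and Oasl2 (1.84 ± 0.38 (limma adjusted p = 0.0368)) came next, and then Rsad2 (3.48-fold, limma adjusted p = 0.0102). In 31 members the knockout exceeded the wild type library in all 4 pairs (18% of genes), and the exceptions were Isg20, Ifih1, Parp14 and Samd9l.
This count depended on the libraries: it was 3 without either library given both agents, 4 without either nicotine library, 6 without either vehicle library and 28 without either LPS library. With additive agents or with genotype as the only term it was 0, with 5 at no minimum level. Cmpk2 (1.36 ± 0.12 (limma adjusted p = 0.00321)) and Ifi44 (1.49 ± 0.16 (limma adjusted p = 0.00506)) held with each library left out. The neutrophil marker sum was 34.5 to 120.0 FPKM in the wild type and 69.3 to 183 in the knockout, most of it S100a8. Without S100a8 the sums were 11.8 to 15.9 and 11.5 to 20.3. Of the 3 neutrophil markers tested, S100a8 and Camp passed as higher in the knockout (4.76% of genes were higher), 0 passed as lower, and Mmp8 did not pass. S100a9 reached at most 0.635 FPKM and Mpo at most 0.0710, too low to be tested. Of the 8 resident peritoneal macrophage markers tested, the genotype effect was higher in the knockout for Timd4 and lower for Gata6, Selp and Tgfb2. Timd4 was at 20.3 and 85.7 FPKM with vehicle and 34.5 and 78.3 with nicotine, then 108 and 222 with LPS and 29.1 and 89.0 with both. Gata6, the factor that defines these cells, was at 15.7 and 3.49 FPKM with vehicle and 2.30 and 0.874 with nicotine, then 13.8 and 4.84 with LPS and 2.45 and 0.814 with both. Conventional dendritic cell markers summed to 12.9 to 49.2 FPKM in the wild type and 3.10 to 22.9 in the knockout. Most of that gap was Cd209a, at 7.86 to 19.8 FPKM in the wild type and at most 0.156 in the knockout, and without it the sums were 1.93 to 30.3 and 2.95 to 22.8. Their part in the genotype result was not tested.

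The gap between genotypes was smallest with LPS alone. Each pair is 1 library against 1, with no test. With vehicle all 35 members were higher in the knockout, 24 of them at least 2-fold (3.91% of the genes tested), with a median ratio of 2.66-fold. With nicotine 34 were higher, 22 at least 2-fold (2.48%), with a median of 2.23-fold and Isg20 the exception. With LPS alone 33 were higher, 4 at least 2-fold (4.09%), with a median of 1.26-fold. Those 4 were Ifit2, Rsad2, Cmpk2 and Ifi44, and Parp14 and Samd9l were below wild type. With both agents 34 were higher, 28 at least 2-fold (3.87%), with a median of 3.09-fold and Ifih1 the exception. Among the members at 5 FPKM or more in either library, 22 of 31 with vehicle (4.32%) and 12 of 18 with nicotine (2.71%) reached 2-fold. The design leaves 1 residual degree of freedom for a change of the gap with treatment. The genotype by LPS interaction averages over libraries with and without nicotine, so it does not test the gap with LPS alone. This interaction passed for 0 members and 0 genes (0%) in limma. An unadjusted limma p under 0.05 was found for 10 of 35 members and 955 of 10447 genes. The interaction had a median of -0.11 over the members. It ran from -2.40 ± 0.19 (limma adjusted p = 0.537) for Isg15 to 1.11 ± 0.34 for Isg20.

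**Figure D4:**
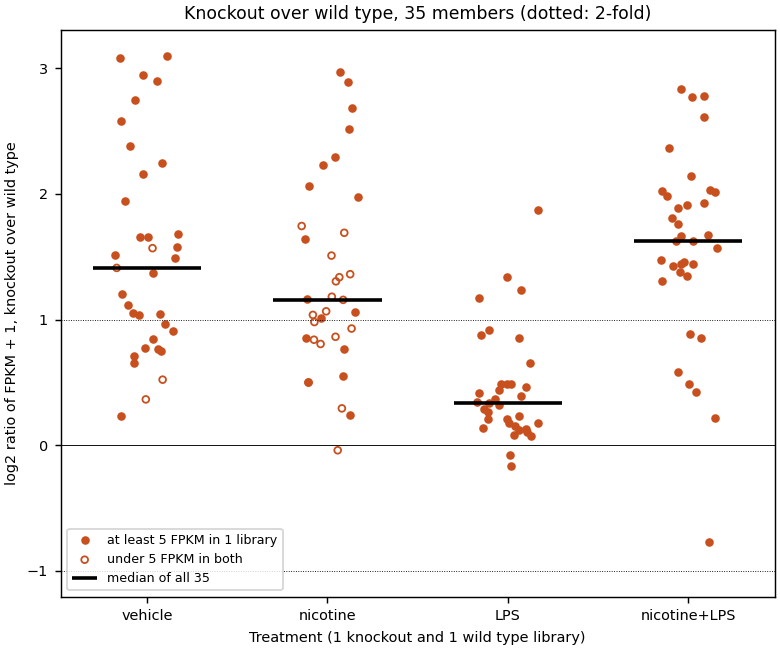
Log2 ratio of FPKM + 1, knockout over wild type, for each of the 35 members under each treatment, 1 pair of libraries per column, with open points where both libraries were under 5 FPKM and a bar at the median of all 35. The medians stand at 1.41 (vehicle), 1.16 (nicotine), 0.33 (LPS) and 1.63 (both agents), and dotted lines mark 2-fold.

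The study's design asks whether nicotine needs the α7 receptor. With LPS, nicotine lowered 32 of 35 members at least 2-fold in the wild type (16.6% of the genes tested) and 27 of 35 in the knockout (14.9%), with median ratios 8.39-fold and 3.49-fold lower. The members were thus lower with nicotine in LPS-treated cells of both genotypes, each as 1 library against 1. As a share of the LPS level, the median member kept 11.6% in the wild type and 28.3% in the knockout. The share was higher in the knockout for 33 of 35 members, while among the 6616 genes at 5 FPKM or more in both LPS libraries it was higher in the knockout for 50.1%. The exceptions were Isg15 (101% and 86.5%) and Ifih1. Under 20% was kept by 25 members in the wild type and 10 in the knockout, against 6.57% and 4.52% of those genes.
As a ratio of the knockout share to the wild type share, the largest gaps were in Ifit3b (2.27% and 20.8%), Ifit3, Mx1 (3.42% and 15.5%) and Zbp1 (5.94% and 26.5%). The smallest ratios among the 33 were in Herc6 (29.9% and 33.1%), Rsad2 (15.7% and 18.2%), Oasl1 and Cmpk2 (10.8% and 13.7%). These shares come from single libraries, and the design leaves no test of the difference under LPS. Averaged over LPS and vehicle, the genotype by nicotine interaction had a median of 0.53 and passed for 0 members and 0 genes (0%) in limma. An unadjusted limma p under 0.05 was found for 8 of 35 members and 634 of 10447 genes. The interaction ran from -0.53 ± 0.63 (limma adjusted p = 0.855) for Ifit1 to 1.40 ± 0.25 (limma adjusted p = 0.740) for Oas2, whose interval was 0.72 to 2.08.

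**Figure D5:**
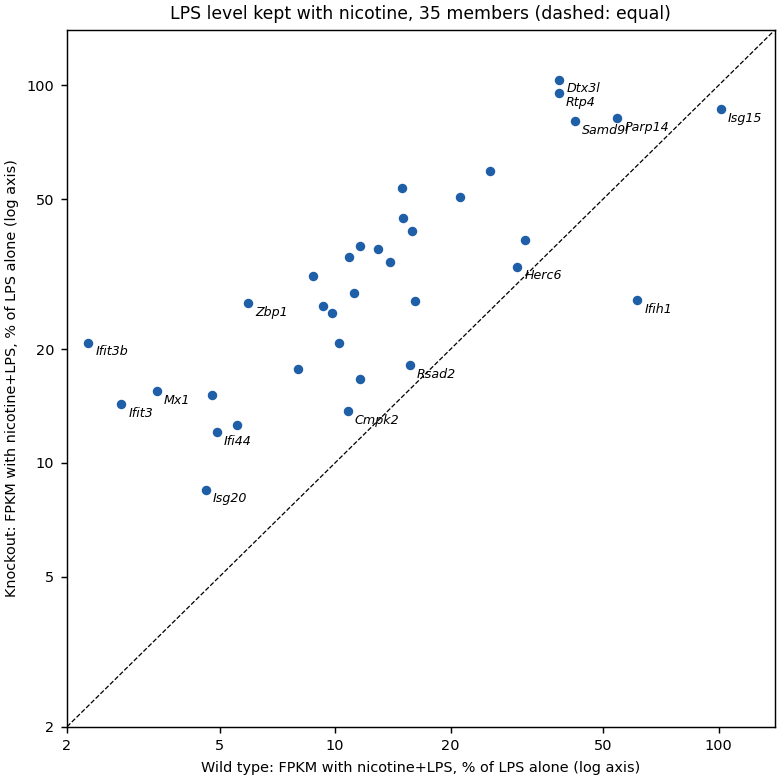
FPKM with nicotine and LPS as a percentage of FPKM with LPS alone, wild type on the horizontal and knockout on the vertical axis (both log), 1 point per member. Of the 35 points, 33 lie above the dashed line of equality, and Isg15 and Ifih1 lie below it.

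Without LPS the single pairs told less: nicotine moved 9 members down and 2 up at least 2-fold in the wild type (12.8% and 16.2% of the genes tested), and 14 down and 1 up in the knockout (13.1% and 14.7%). Isg15 was up in both, from 6.25 to 35.8 FPKM and from 54.8 to 209.7. The other member up in the wild type was Rsad2, from 0.753 to 2.80 FPKM. Ifit3 had the largest ratio down in the knockout, from 17.1 to 1.82 FPKM, and Rtp4 in the wild type, from 7.07 to 0.869. LPS alone moved all 35 up at least 2-fold in both genotypes (19.6% and 17.6%), with medians of 40.1-fold in the wild type and 17.8-fold in the knockout, whose vehicle levels were higher. In the presence of nicotine it moved 34 up in each (5.73% and 7.6%), by medians of 7.74-fold and 12.4-fold.

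Upstream, a list of 26 genes of interferon induction and signalling was read in the same fit, of which 24 passed the minimum. This list, too, was chosen with earlier results of these data known. LPS raised 15 of the 24 and lowered 2 (32.7% and 26.4% of all genes tested), and nicotine with LPS lowered 15 and raised 5 (28.6% and 26.9%), so the rises with nicotine were no more frequent than over all genes. Ifnb1, which encodes interferon beta, was listed at 0 in the 4 libraries without LPS and was at 6.21 and 165 FPKM with LPS and 20.6 and 134 with both agents. It was thus higher with nicotine in the wild type and lower in the knockout, and its nicotine effect with LPS was 0.64 ± 1.07 (limma adjusted p = 0.634). Irf7, the factor that amplifies interferon output, was at 7.28 and 61.7 FPKM with vehicle and 2.49 and 37.5 with nicotine, then 909 and 1388 with LPS and 45.4 and 195 with both agents. It fell with nicotine and LPS by 3.56 ± 0.61 (limma adjusted p = 0.00335), and was higher in the knockout by 2.27 ± 0.43 (limma adjusted p = 0.0301).
Irf9, the DNA-binding partner of Stat2, was at 16.9 and 25.5 FPKM with vehicle and 13.2 and 23.4 with nicotine, then 71.6 and 73.4 with LPS and 67.0 and 110.5 with both agents. It was raised by LPS and its nicotine effect with LPS did not pass (0.24 ± 0.20 (limma adjusted p = 0.339)). The receptor genes fell with nicotine and LPS, Ifnar1 by 1.63 ± 0.22 (limma adjusted p = 0.00143) and Ifnar2 by 1.42 ± 0.18 (limma adjusted p = 0.00120).
The largest falls of this list under nicotine and LPS were in Socs3 (-3.64 ± 0.29 (limma adjusted p = 0.000292)), a feedback inhibitor, Irf7 and the kinase gene Ikbke (-3.13 ± 0.24 (limma adjusted p = 0.000262)). The largest rises were in the TLR4 adaptors Ticam2 (1.33 ± 0.24 (limma adjusted p = 0.00413)) and Ticam1 (0.87 ± 0.19 (limma adjusted p = 0.00840)) and in Pias1 (0.65 ± 0.15 (limma adjusted p = 0.0110)). The genotype effect of Irf7, Ikbke and Tmem173, which encodes STING, passed, and these genes were higher in the knockout.

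A further list of 50 antiviral interferon-stimulated genes outside the set, all tested, was read in the same fit. Like the members, these genes were chosen with earlier results of these data known, so their counts are not independent of those results. LPS raised 47 (32.7% of all genes) and lowered 0, with a median of 2.78. Nicotine with LPS lowered 43 (28.6%) and raised 1 (26.9%), Zc3hav1 (the zinc finger antiviral protein, 0.75 ± 0.13 (limma adjusted p = 0.00393)), with a median of -1.92, and the largest falls were in Ms4a4c (-3.93 ± 0.33 (limma adjusted p = 0.000315)), Ddx60 (-3.90 ± 0.18 (limma adjusted p = 0.000115)) and Phf11b (-3.72 ± 0.44 (limma adjusted p = 0.000864)). Nicotine without LPS lowered 27 (26%) and raised 2 (30.1%). The interaction was lower in 29 (17.3%). The genotype effect was higher in the knockout for 17 (4.76%), led by Ifi27l2a (2.18 ± 0.25 (limma adjusted p = 0.00710)), Ms4a4c (1.77 ± 0.23 (limma adjusted p = 0.0101)) and Phf11b (1.76 ± 0.31 (limma adjusted p = 0.0252)), and lower for 1 (2.88%), Ifitm6 (-1.42 ± 0.32 (limma adjusted p = 0.0470)).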

How the data were processed

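RNA sequencing of 8 peritoneal macrophage libraries was used, 1 per condition, grouped by the titles in the labels. Per the labels' protocols, an unstranded TruSeq kit (v2) was used on poly(A) RNA. The deposited table gives the authors' FPKM for each gene in each library. For its making, HISAT2, Cufflinks, Cuffdiff, CASAVA 1.8 and the build mm10 are named, without role or order, in the submitters' processing notes. The sources used here give neither the annotation nor the scaling between libraries, so a few very abundant genes may shift all others, and depth in counts is unknown.

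Of 24341 lines, the line with the higher mean was kept for repeated symbols, which left 24339 genes. The 10447 genes whose mean reached 1 FPKM were tested on log2(FPKM + 1) with limma 3.58.1 in R 4.3.3, with a variance trend, 4 treatment levels and genotype as a block (3 residual degrees of freedom), and Benjamini-Hochberg adjustment at 0.05. Genotype interactions came from a model with all pairwise interactions (1 residual degree of freedom). Single pairs of libraries were described as ratios of FPKM + 1, with 2-fold as the threshold, over the tested genes or those with at least 5 FPKM in either library. The first of these was added after the data were seen. The fits were tested on simulated data.

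The members and gene lists were chosen with earlier results of these data known. All members are described. Of the pathway lists, the genes with the 3 largest changes each way among those past a threshold are named, with Ifnb1, Ifnar1, Ifnar2, Irf7 and Irf9, and a further gene of that rule is not reported here. Gene positions came from GENCODE on GRCm38 (35 members matched), promoters from RefSeq on GRCm38.p6, and open reading frames were aligned with Biopython 1.88. Python 3.11.15, pandas 2.3.3, NumPy 2.4.6 and Matplotlib 3.10.9 did the rest. Alternatives covered the pseudocount, the minimum level, scaling between libraries, the model terms and each library left out.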

Additional observations from a re-analysis of the deposited data

Results flagged for a closer look

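On the log2(FPKM + 1) scale the nicotine effect differed with and without LPS, by the interaction term of the limma fit, in 17 members. The difference, with LPS minus without LPS on the log2 scale, was -3.84 for Isg20, -3.42 for Rsad2, -3.39 for Mx1, -3.06 for Ifi44, -2.88 for Ifit3b, -2.61 for Usp18, -2.55 for Oas3 and -2.54 for Oas1g. It was -2.30 for Mx2, -2.29 for Cmpk2, -2.16 for Bst2, -2.08 for Oas1a, -1.82 for Ifi35, -1.78 for Oasl1, -1.61 for Ifit2, -1.54 for Parp12 and -1.37 for Dhx58.

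In 7 members the nicotine ratio had opposite signs in the genotypes, each from 1 library against 1, and the difference was not tested. With vehicle in place of LPS the log2 ratios in wild type and knockout were 0.13 and -0.27 for Isg20, 0.57 and -0.04 for Oasl1, -0.62 and 0.41 for Oas1a, -0.43 and 0.60 for Oas2, and -0.26 and 0.22 for Bst2. With LPS they were 0.02 and -0.21 for Isg15 and -1.36 and 0.05 for Dtx3l. Apart from Dtx3l, each of these ratios was under 2-fold.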

How the results depend on the processing

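The LPS rise without nicotine kept its call for all 35 members under every alternative. Of the 31 falls with nicotine and LPS, 14 kept theirs under every alternative, and of the 16 genotype calls none did. Treatments were matched by genotype in the fit, and values without that genotype block are given below. Replicates could not be paired, with 1 library per condition. Where a library was left out, the lone library of its treatment was assumed to vary like the others. Depth in counts is unknown, so low levels could not be given counting limits.

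With a pseudocount of 0.1 the interaction of the agents was lower for 8 members and the genotype by LPS interaction for 1 gene, and with 5 nicotine without LPS lowered 6 members. With no minimum level LPS with nicotine called 1012 genes, nicotine without LPS lowered 7 members, the interaction was lower for 8, and genotype passed for 5 members and 271 genes. With quantile normalization the interaction was lower for 9 members and higher for 1. Without the genotype block LPS with nicotine raised 18 members and called 644 genes, nicotine lowered 2 members without LPS and 19 with LPS, and the interaction was lower for 1 member and passed for 1588 genes. With genotype as the only term 0 members and 19 genes passed. The additive model has a single LPS effect and a single nicotine effect, each averaged over the levels of the other agent. It called 2824 genes for LPS, lowered 25 members with nicotine, and passed 0 members and 115 genes for genotype. Without the 5 FPKM minimum, or with 1 FPKM, 22 members were at least 2-fold higher in the knockout with nicotine and 2 were higher with nicotine in the wild type. The main fit called 6172 genes for LPS without and 1554 with nicotine, 5855 and 5804 for nicotine without and with LPS, 3143 for the interaction and 798 for genotype.

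With each library left out, members called in the direction of the result (higher for LPS and genotype, lower for nicotine and the interaction) and genes called in either direction ranged from 35 to 35 and 4184 to 5974 for LPS without nicotine, 24 to 35 and 337 to 2252 for LPS with nicotine, 5 to 21 and 3793 to 6461 for nicotine without LPS, 25 to 33 and 3700 to 5564 for nicotine with LPS, 6 to 25 and 1035 to 3706 for the interaction, and 3 to 28 and 155 to 1120 for genotype.

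Signs turned for these values, none of them past the threshold in the main fit. For nicotine without LPS, Oas2 was at -0.046 with a pseudocount of 0.1, Isg20 at 0.21 with quantile normalization, and Rsad2, Oasl1 and Oas2 at -0.85, -0.63 and -0.85 in the additive model. With each library left out, Isg20 ranged from -0.57 to 0.43, Oasl1 from -0.34 to 0.87, Oas1a from -0.78 to 0.58, Oas2 from -0.56 to 0.73, Bst2 from -0.35 to 0.31 and Ifi44 from -0.40 to 0.0095. For nicotine with LPS, Isg15 was at 0.83 with quantile normalization and ranged from -0.97 to 0.78 with each library left out, and Rtp4 from -1.74 to 0.30. The additive model has a single nicotine effect, averaged over libraries with and without LPS, so its values are not effects in either setting. They were -0.85 for Rsad2, -0.63 for Oasl1, -0.85 for Oas2 and 1.02 for Isg15. For the interaction, Ifih1 was at -0.52 with a pseudocount of 5 and Samd9l at 0.49 with quantile normalization. With each library left out, the interaction ranged from -0.66 to 0.79 for Ifih1, -0.55 to 0.17 for Samd9l, -2.01 to 0.29 for Ifit1, -1.64 to 0.37 for Oasl2 and -0.15 to 0.83 for Dtx3l. The median genotype by LPS interaction of the members was 0.18 with a pseudocount of 5. The causes were not tested.

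Quantile normalization moved the median LPS effect of all genes tested from 0.08 to -0.07, and the median of the members from 4.70 to 4.28. Of the genes called for LPS, 3419 were higher and 2753 lower as deposited and 2704 higher and 3284 lower after it. For the interaction of the agents these were 1332 and 1811, and 1567 and 1261.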
